A study of Mus musculus with 18 samples.

Results

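The unfolded protein response and the integrated stress response were followed through 10 genes in mouse hearts kept in cold storage and then reperfused. The genes were Hspa5, Xbp1, Atf4, Ddit3, Trib3, Chac1, Herpud1, Ppp1r15a, Sesn2 and Gdf15, chosen by name out of 34989 genes with summed transcript counts. Their measured values were not used to choose them, but results of these data were known when the list was drawn up. Hearts of mice of strain C57B/L6 as the labels spell it (C57BL/6J in the study's methods), 12 weeks old by the labels, were flushed with HTK, a preservation solution, and held in ice-cold HTK for 0, 4 or 8 h. All hearts, those at 0 h included, were then perfused ex vivo with Krebs buffer for 1 h before the left (LV) and right (RV) ventricles were frozen, so that none was sampled without perfusion. Each of the 6 combinations of ventricle and storage time had 3 libraries. By the study's methods they were made from total ventricular RNA with a step that selects mRNA. The study used mice of both sexes without genetic changes, and the labels give no sex for a library.

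Misfolded protein in the lumen of the endoplasmic reticulum (ER) is sensed by 3 membrane proteins, Ire1 (gene Ern1), Perk (Eif2ak3) and Atf6. Ire1 cuts a short stretch out of Xbp1 mRNA so that an active transcription factor is made, Atf6 is itself released as a transcription factor, and together they raise chaperones such as Hspa5 and degradation factors such as Herpud1. Perk shares its substrate, the translation initiation factor eIF2alpha, with kinases that sense amino acid shortage, haem shortage and double-stranded RNA. That common branch is the integrated stress response. It slows protein synthesis while favouring translation of Atf4, which turns on genes of amino acid supply and regulators such as Ddit3, Trib3, Chac1 and Sesn2. Ischemia and reperfusion are known to engage both responses in the heart.

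Promoter sequences show which of the 10 genes carry the textbook elements of these branches close to the start site, and those that do are printed. RefSeq promoters were matched for 10 of the 10 genes (assembly GRCm38.p6; 11 start sites, of which Gdf15 has 2), and the 250 bases before each start were searched on both strands. The motifs were TGATGNAA, the core of the C/EBP-ATF element that Atf4 binds, the ER stress element (CCAAT and CCACG with 9 bases between), the ER stress element II (ATTGG and CCACG with 1 base between) and TGACGTCA, the cAMP response element. Of 32851 mouse promoters, 3.45%, 0.113%, 0.0304% and 1.55% held them. Matches lay before Hspa5 at chr2:34771840-34772089 (+ strand), Herpud1 at chr8:94386179-94386428 (+ strand), Chac1 at chr2:119350992-119351241 (+ strand) and Ppp1r15a at chr7:45526269-45526518 (- strand). The sequences run 5′ to 3′ along each gene and end at the base before the start, with matches in capitals.
Hspa5: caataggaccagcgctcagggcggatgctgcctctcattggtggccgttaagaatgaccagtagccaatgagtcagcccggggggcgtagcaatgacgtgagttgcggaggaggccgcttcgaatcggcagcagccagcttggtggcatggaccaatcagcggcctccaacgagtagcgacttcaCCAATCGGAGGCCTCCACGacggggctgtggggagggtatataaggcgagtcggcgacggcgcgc
Herpud1: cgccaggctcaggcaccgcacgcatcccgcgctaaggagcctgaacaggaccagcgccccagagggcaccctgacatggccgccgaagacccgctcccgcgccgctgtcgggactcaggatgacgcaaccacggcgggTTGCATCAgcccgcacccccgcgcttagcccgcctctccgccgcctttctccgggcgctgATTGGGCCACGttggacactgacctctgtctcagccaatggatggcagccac
Chac1: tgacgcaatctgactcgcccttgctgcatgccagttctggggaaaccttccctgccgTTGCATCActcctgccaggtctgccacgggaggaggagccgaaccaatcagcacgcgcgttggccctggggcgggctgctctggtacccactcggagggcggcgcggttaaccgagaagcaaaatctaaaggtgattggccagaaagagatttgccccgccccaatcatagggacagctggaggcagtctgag
Ppp1r15a: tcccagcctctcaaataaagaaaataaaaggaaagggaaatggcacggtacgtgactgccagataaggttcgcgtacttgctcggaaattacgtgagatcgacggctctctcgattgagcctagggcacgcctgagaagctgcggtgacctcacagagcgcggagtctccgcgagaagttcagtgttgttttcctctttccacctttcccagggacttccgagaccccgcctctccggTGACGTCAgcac
In Hspa5 the capitals are the ER stress element, 65 to 47 bases before the start. In Herpud1 they are the reverse complement of the Atf4 core, 112 to 105 bases before the start, and the ER stress element II at 52 to 42. Chac1 had the Atf4 core, also on the reverse strand, at 193 to 186 bases, and Ppp1r15a had the cAMP response element, a palindrome, at 12 to 5. The 4 motifs did not occur in these windows of the other 6 genes, which says only that these letters are not there.

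Libraries held 22552581 to 46236771 estimated counts. The genome of the mitochondrion took 22.7 to 34.4% of them, with 32.0 to 34.4% in the 6 libraries of 8 h. The 6 cardiomyocyte markers were high in all libraries (27930 to 67390 CPM in sum), and the lowest sum was that of RV 8 h replicate 3. Levels are given as CPM, counts scaled to library size with TMM factors. In both ventricles, 4 genes of the Y chromosome summed to 4.63 to 6.78 CPM in replicate 2 of 0 h and replicate 3 of 4 h and 8 h. They summed to 133.4 to 193.7 CPM in the other libraries, so that each group held low and high ones. A gene was called when the Benjamini-Hochberg adjusted p of edgeR's quasi-likelihood test over all genes tested was under 0.1 and the fold change over 1.5. The 10 genes all passed the filter on low counts, with 27 to 398 counts a library for Trib3, the lowest, and 11110 to 36694 for Hspa5.

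After 4 h of storage, Atf4, Sesn2, Ppp1r15a and Chac1 were called higher in RV, and after 8 h Atf4, Sesn2, Ppp1r15a and Xbp1. That is 4 of 10 genes at each time, where 6.17% of the 14622 genes tested in RV were called higher at 4 h and 13% at 8 h. None of the 10 was called lower in RV, where 3.91% and 5.26% of all genes were. In LV, edgeR called 0 of the 10 at either time, with 2 at an unadjusted p under 0.05 at 4 h and 1 at 8 h, and DESeq2 also called 0. Of the 14564 genes tested in LV, 2272 had such an edgeR p at 4 h and 3396 at 8 h. Among the 14564 genes tested in LV, 2.4% were called higher at 4 h and 5.46% at 8 h, and 0.398% and 1.26% lower. The median log2 fold change of the 10 genes was 0.89 and 0.88 in RV at 4 h and 8 h and 0.52 and 0.25 in LV, against medians of all genes tested between -0.07 and 0.00. All stored RV libraries lay above all 0 h RV libraries for 5 of the 10 genes at 4 h and 6 at 8 h, as they did for 15.1% and 18.5% of all genes tested. In LV this held for 2 genes at 4 h and 1 at 8 h, beside 12.9% and 15.5% of all genes.

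**Figure D1:**
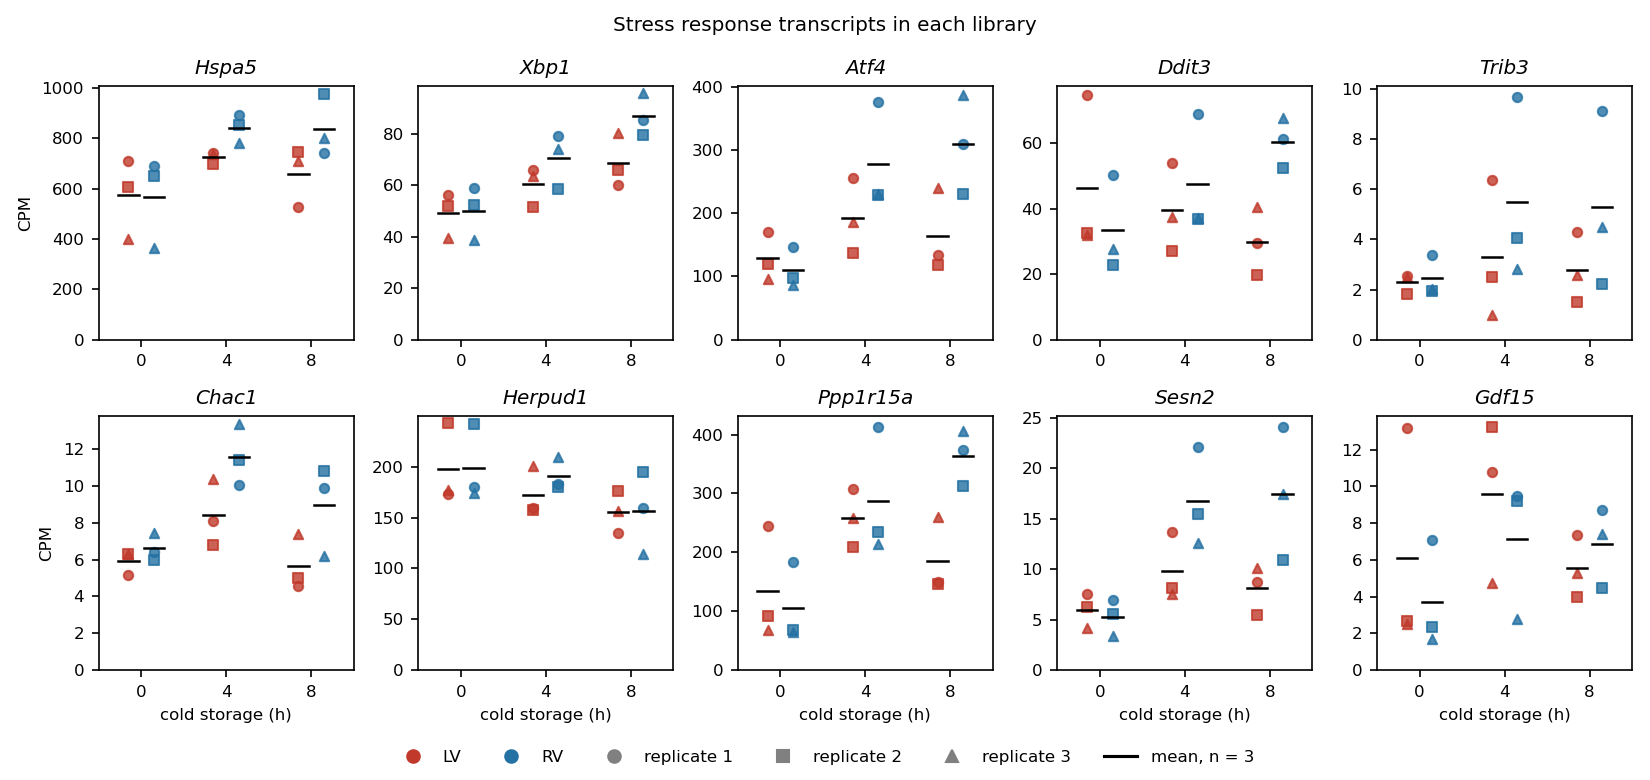
CPM of the 10 genes in each library (y axis, linear from 0) against hours of cold storage (x axis), with LV in red and RV in blue, a symbol for each replicate number, and black bars for the mean of 3 libraries. In RV, Atf4 and Ppp1r15a of the stored libraries lie above those of 0 h, while Ppp1r15a, Ddit3 and Gdf15 of replicate 1 at 0 h lie apart from the other 0 h libraries in both ventricles.

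Atf4 encodes the transcription factor at the centre of the integrated stress response. In RV its level in replicates 1, 2 and 3 was 145.9, 96.9 and 86.8 CPM at 0 h, 374.9, 229.4 and 230.6 CPM at 4 h, and 309.9, 230.3 and 385.9 CPM at 8 h. The stored and 0 h libraries of RV did not overlap. The log2 fold change in RV was 1.36 (SE 0.30, edgeR adjusted p = 0.0351) at 4 h and 1.51 (SE 0.31, adjusted p = 0.0139) at 8 h, or 2.56-fold and 2.85-fold. In LV the levels were 169.9, 120.1 and 96.0 CPM at 0 h, 255.1, 137.7 and 186.1 CPM at 4 h, and 134.5, 118.8 and 240.1 CPM at 8 h. These overlapped at both times, with log2 fold changes of 0.59 (SE 0.33, adjusted p = 0.440) and 0.36 (SE 0.33, adjusted p = 0.528). The value at 8 h in LV rested on replicate 3, without which the log2 fold change was -0.03.

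Sesn2 encodes sestrin 2, a stress-induced inhibitor of the growth kinase mTORC1. Its RV levels were 6.96, 5.55 and 3.36 CPM at 0 h, 22.2, 15.5 and 12.6 CPM at 4 h, and 24.1, 10.9 and 17.4 CPM at 8 h. All 6 stored RV libraries were above the 3 of 0 h. The log2 fold change was 1.68 (SE 0.35, adjusted p = 0.0282) at 4 h and 1.73 (SE 0.35, adjusted p = 0.0142) at 8 h. In LV the levels were 7.50, 6.25 and 4.14 CPM at 0 h, 13.6, 8.16 and 7.58 CPM at 4 h, and 8.76, 5.46 and 10.1 CPM at 8 h. The LV libraries of 4 h were above those of 0 h and those of 8 h were not, and neither change was called (log2 0.72, SE 0.32, adjusted p = 0.319 at 4 h, and 0.44, SE 0.32, adjusted p = 0.420 at 8 h).

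Ppp1r15a encodes Gadd34, which brings a phosphatase to eIF2alpha and so ends the response. In RV it had 182.9, 68.9 and 65.1 CPM at 0 h, 413.5, 235.3 and 213.4 CPM at 4 h, and 373, 312.5 and 405.3 CPM at 8 h. The change was called at both times, with log2 1.46 (SE 0.42, adjusted p = 0.0776) at 4 h and 1.796 (SE 0.43, adjusted p = 0.0249) at 8 h. In LV it had 244.5, 92.4 and 68.3 CPM at 0 h, 306.9, 209.5 and 258 CPM at 4 h, and 150.3, 145.6 and 260.2 CPM at 8 h. Replicate 1 at 0 h was higher than the other 0 h libraries in both ventricles, and in LV it overlapped the stored libraries. The LV changes were log2 0.94 (SE 0.44, adjusted p = 0.349) at 4 h and 0.46 (SE 0.44, adjusted p = 0.547) at 8 h. Without LV 0 h replicate 1 they were 1.68 (adjusted p = 0.0430) and 1.21 (adjusted p = 0.0914), and both were called.

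Ddit3 encodes Chop, a transcription factor tied to cell death under lasting ER stress. In RV it had 50.1, 22.7 and 27.8 CPM at 0 h, 68.9, 37.0 and 37.1 CPM at 4 h, and 61.2, 52.3 and 67.6 CPM at 8 h. The RV libraries of 8 h lay above those of 0 h, but the change of log2 0.86 (SE 0.34, adjusted p = 0.119) was not called. In LV it had 74.6, 32.5 and 31.9 CPM at 0 h, 53.9, 27.0 and 37.4 CPM at 4 h, and 29.6, 19.9 and 40.4 CPM at 8 h. The LV change at 8 h had the opposite sign, log2 -0.63 (SE 0.40, adjusted p = 0.363), and was -0.10 without LV 0 h replicate 1.

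Chac1 encodes an enzyme that degrades glutathione. Its RV levels were 6.40, 5.96 and 7.44 CPM at 0 h, 10.0, 11.4 and 13.3 CPM at 4 h, and 9.89, 10.8 and 6.19 CPM at 8 h. The change was called at 4 h (log2 0.83, SE 0.21, adjusted p = 0.0553) and not at 8 h (0.45, SE 0.22, adjusted p = 0.190), when replicate 3 lay among the 0 h libraries. In LV the levels ran from 5.18 to 6.28 CPM at 0 h, 6.78 to 10.4 CPM at 4 h and 4.56 to 7.37 CPM at 8 h, with log2 fold changes of 0.51 (SE 0.22, adjusted p = 0.314) and -0.07 (SE 0.23, adjusted p = 0.871).

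Trib3 and Gdf15 were low and uneven. Trib3 encodes a pseudokinase that restrains Atf4 and the kinase Akt. Its RV levels of 1.96 to 3.36 CPM at 0 h stood beside 9.69, 4.05 and 2.81 CPM at 4 h and 9.13, 2.22 and 4.48 CPM at 8 h, with replicate 1 the highest of each. The log2 fold changes in RV of 1.19 (SE 0.56, adjusted p = 0.264) and 1.11 (SE 0.56, adjusted p = 0.206) were not called, and in LV the levels spanned 0.993 to 6.37 CPM. Gdf15 encodes a secreted stress cytokine. It had 13.2, 2.67 and 2.52 CPM in LV and 7.07, 2.34 and 1.70 CPM in RV at 0 h, so that replicate 1 was apart from the others in both ventricles, and 2.77 to 13.2 CPM across the stored libraries. Its log2 fold changes at 8 h were -0.15 (SE 0.64, adjusted p = 0.901) in LV and 0.90 (SE 0.59, adjusted p = 0.307) in RV. Without replicate 1 of 0 h the RV change was 1.78 (adjusted p = 0.0780) and called, and the LV change was 1.10 (adjusted p = 0.224).

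The members of the ER branch were Hspa5, Xbp1 and Herpud1. Hspa5 encodes BiP, the main chaperone of the ER lumen. In RV it had 692, 650.3 and 363 CPM at 0 h, 893, 855 and 781 CPM at 4 h, and 741, 978 and 799.8 CPM at 8 h. All stored RV libraries were above those of 0 h, with log2 fold changes of 0.59 (SE 0.25, adjusted p = 0.220) at 4 h and 0.58 (SE 0.25, adjusted p = 0.160) at 8 h that were not called. In LV it had 712, 608 and 399 CPM at 0 h, 742, 698 and 737 CPM at 4 h, and 527, 746 and 709 CPM at 8 h. The LV log2 fold changes were 0.34 (SE 0.21, adjusted p = 0.495) and 0.21 (SE 0.21, adjusted p = 0.571). Replicate 3 of 0 h was the lowest library of Hspa5 in each ventricle.

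Xbp1 encodes the transcription factor of the Ire1 branch. Its RV levels were 58.8, 52.4 and 38.7 CPM at 0 h, 79.3, 58.7 and 74.0 CPM at 4 h, and 85.2, 79.6 and 95.8 CPM at 8 h. The RV libraries of 8 h lay above those of 0 h, and the change was called (log2 0.81, SE 0.20, adjusted p = 0.0296), which the change at 4 h was not (0.52, SE 0.20, adjusted p = 0.169). The LV levels were 56.2, 52.2 and 39.5 CPM at 0 h, 66.1, 51.8 and 63.7 CPM at 4 h, and 60.2, 66.1 and 80.2 CPM at 8 h. At 8 h they too were all above 0 h, but the log2 fold change of 0.49 (SE 0.17, adjusted p = 0.140) was not called.

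Herpud1, which helps to draw misfolded protein out of the ER for degradation, had 114 to 195 CPM in RV at 8 h and 174 to 242 CPM at 0 h. The groups overlapped in both ventricles at both times. Its log2 fold changes were between -0.34 and -0.04 and none was called (adjusted p 0.274 to 0.966). It was the only gene of the 10 with a log2 fold change below 0 in all 4 comparisons.

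**Figure D2:**
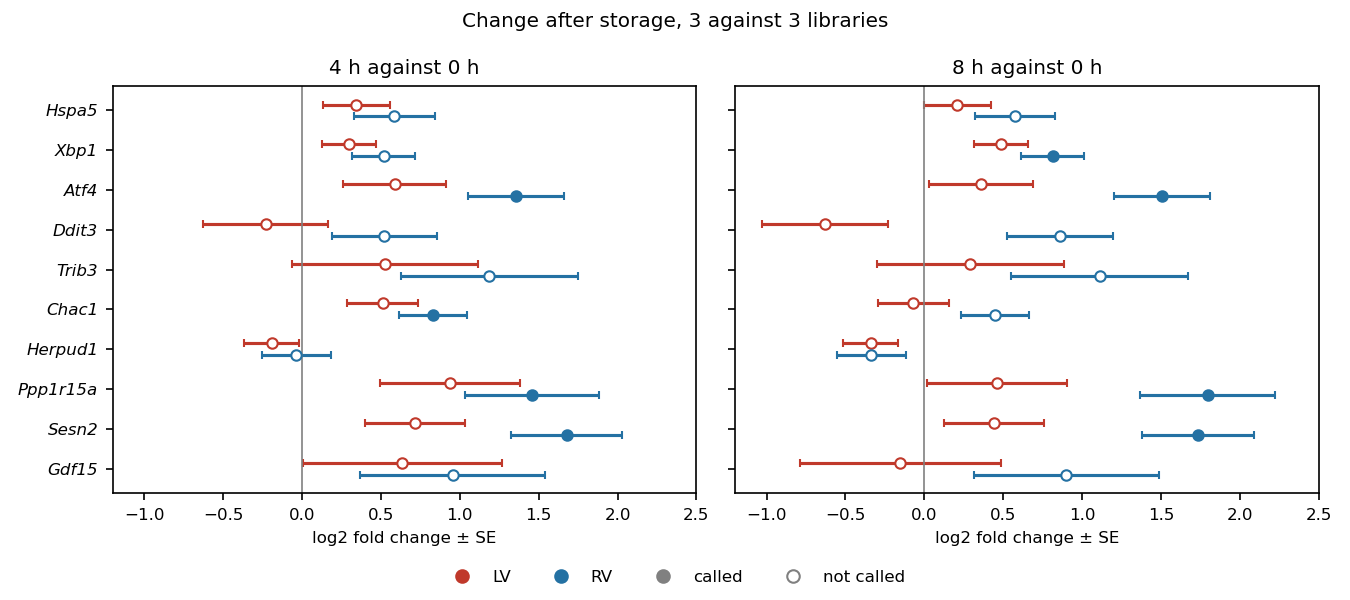
Log2 fold change with its SE (x axis) of the 10 genes (y axis) at 4 h and at 8 h against 0 h, in LV (red) and RV (blue), 3 libraries against 3; filled points were called. RV points of Atf4, Sesn2 and Ppp1r15a are filled at both times, the RV points of Chac1 at 4 h and Xbp1 at 8 h too, and no LV point is filled.

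Single libraries set how many of the 10 were called in RV. At 4 h the count was 0 when RV 0 h replicate 2 or replicate 3 was left out, 1 or 2 when a 4 h library was, and 4 without RV 0 h replicate 1. At 8 h it ran from 3 to 6, with Atf4 and Sesn2 called each time, Xbp1 lost without RV 0 h replicate 3 and Ppp1r15a lost without RV 0 h replicate 2. Calls over all genes fell too. At 4 h, 902 genes were called higher in RV, but 235 and 273 without RV 0 h replicate 2 and replicate 3. Without a 4 h library there were 496 to 647. At 8 h there were 1896, and 1025 to 2626 without a library. DESeq2 called 5 of the 10 at 8 h, Ddit3 added. Same-numbered RV libraries of 0 h and storage deviated together, although they cannot come from 1 heart. With the replicate number as a block 5 genes were called at 4 h, Trib3 added (log2 1.07, adjusted p = 0.0680), and 7 at 8 h. The genes added at 8 h were Ddit3 (log2 0.96, adjusted p = 0.0247), Trib3 (1.00, adjusted p = 0.0572) and Hspa5 (0.61, adjusted p = 0.0963), while 8.45% and 15.5% of all genes were called higher in that fit. Between 8 h and 4 h, edgeR and DESeq2 called 0 of the 10 in either ventricle, with an unadjusted p under 0.05 for 1 gene in LV and for 0 in RV, and edgeR called 0% of all genes. Of all genes tested, 1180 of 14564 in LV and 961 of 14622 in RV had such an edgeR p.

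Per unit of transcript length, the order of the 10 genes was led by Hspa5. In RV at 0 h it had 367 ± 163 TPM (the deposited length-scaled unit, summed over transcripts, mean ± SD, n = 3), followed by Herpud1 with 152 ± 37.9, Atf4 with 89.4 ± 33.2, Ppp1r15a with 65.6 ± 41.1, Ddit3 with 59.8 ± 29.6 and Xbp1 with 35.9 ± 12.0 TPM. Chac1 (5.56 ± 0.225), Gdf15 (3.82 ± 3.22), Sesn2 (2.03 ± 0.872) and Trib3 (1.76 ± 0.711 TPM) were far lower. Atf4, Ppp1r15a and Ddit3 lay within each other's SD. In RV at 8 h Atf4 with 189.9 ± 39.2 TPM and Ppp1r15a with 174 ± 34.1 TPM followed Hspa5, ahead of Herpud1 with 91.6 ± 25.0 and Ddit3 with 82.9 ± 7.48 TPM.

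Whether LV and RV differed was then asked at each storage time in a fit of all 18 libraries. Without pairing, edgeR called 0 of the 10 genes at 0 h, 4 h or 8 h, with 0, 1 and 4 at an unadjusted p under 0.05. It also called 0 for the difference between the ventricles in the change from 0 h to 4 h or 8 h, with 0 and 3 at that p, and DESeq2 called 0 throughout. Of all 15093 genes, 484, 446 and 1669 had such an edgeR p at 0 h, 4 h and 8 h. For the differences in change, 158 genes had it at 4 h and 628 at 8 h. Without LV 8 h replicate 3, Atf4 and Chac1 were called at 8 h. In that fit 76 of 15339 genes were called higher in LV and 286 lower. With all 18 libraries, 0.159%, 0.0133% and 0.0331% of the 15093 genes tested were called in either direction at 0 h, 4 h and 8 h. For each difference in change 0% were called. Same-numbered LV and RV libraries deviated together at every storage time, and with that number as a block the result was another. At 8 h, 6 of the 10 were then called lower in LV, where 6.53% of all genes were, and 5 had a called difference in the change from 0 h to 8 h, where 4.72% of all genes had a lower change in LV.

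The 6 genes lower in LV at 8 h were Sesn2, Ppp1r15a, Atf4, Ddit3, Trib3 and Chac1. Paired with the LV library of the same number, the RV level of Sesn2 was 2.76, 2.004 and 1.72 times that of LV in replicates 1, 2 and 3 at 8 h. For Ppp1r15a the ratio was 2.48, 2.15 and 1.56, for Atf4 2.30, 1.94 and 1.61, and for Ddit3 2.07, 2.63 and 1.68. At 0 h these 4 genes were higher in LV in 3 of 3 pairs, by a log2 ratio of 0.07 to 0.58. The share of all genes higher in LV in 3 of 3 pairs at 0 h was not counted. The paired log2 difference between LV and RV at 8 h was -1.10 for Sesn2 (SE 0.12, adjusted p = 0.000291), -1.02 for Ppp1r15a (SE 0.15, adjusted p = 0.000994), -0.95 for Atf4 (SE 0.11, adjusted p = 0.000387) and -1.06 for Ddit3 (SE 0.12, adjusted p = 0.000432). Trib3 (-0.86, SE 0.19, adjusted p = 0.00893) and Chac1 (-0.68, SE 0.22, adjusted p = 0.0449) were called as well, but each call rested on single pairs. Without the 8 h pair of replicate 1 Trib3 was not called (-0.68, adjusted p = 0.112). Chac1 was not called without the 8 h pair of replicate 1 (-0.45, adjusted p = 0.286) or replicate 2 (-0.45, adjusted p = 0.224), and was -1.11 without that of replicate 3. In Chac1, LV was lower in 2 of the 3 pairs. In the same fit at 8 h, 1 of 4 fibroblast and 1 of 4 smooth muscle markers were called lower in LV (list medians of -0.36 and -0.43), and of 3 tested neutrophil markers 2 were higher and 1 was lower. Of 6 cardiomyocyte, 4 atrial, 4 endothelial and 4 macrophage markers 0 were called. The part of these markers in the differences was not tested.

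The other 4 members were not called in the paired fit at 8 h. Gdf15 had a difference of -0.30 (SE 0.14, adjusted p = 0.155). Xbp1 and Hspa5 were lower in LV in 3 of 3 pairs at 8 h, with RV levels 1.19 to 1.42 times and 1.13 to 1.41 times those of LV. Their paired differences of -0.34 (SE 0.07, adjusted p = 0.00456) and -0.35 (SE 0.10, adjusted p = 0.0220) passed the p threshold but not the 1.5-fold threshold. Herpud1 had a paired difference of 0.02 (SE 0.12, adjusted p = 0.923). In all, LV was below RV in 3 of 3 pairs for 0, 7 and 8 of the 10 genes at 0 h, 4 h and 8 h, and for 21.2%, 21.4% and 24.1% of all genes.

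**Figure D3:**
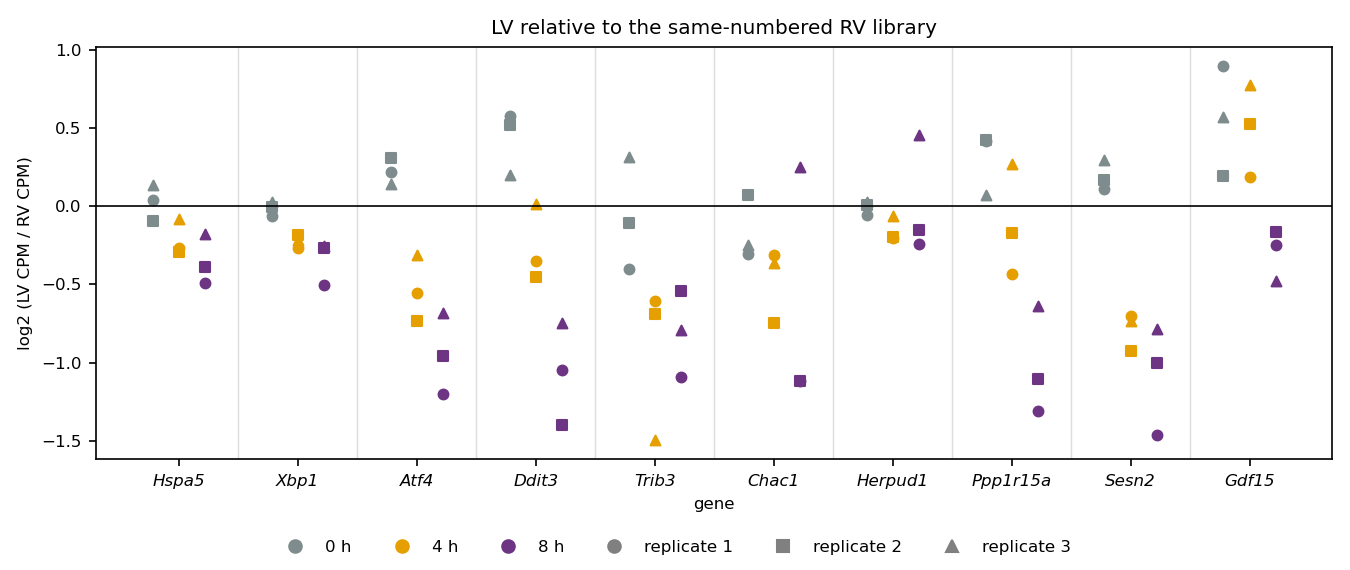
Log2 ratio of the LV level to the RV level (y axis) in each same-numbered pair of libraries for the 10 genes (x axis), coloured by hours of storage, with a symbol for each replicate number. The 0 h pairs of Atf4, Ddit3, Ppp1r15a and Sesn2 lie above 0 and their 8 h pairs below it, while Herpud1 at 8 h lies on both sides.

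In the paired fit, RV changed more than LV between 0 h and 8 h in Ddit3 (log2 difference -1.49, SE 0.18), Ppp1r15a (-1.32, SE 0.21), Sesn2 (-1.28, SE 0.17), Atf4 (-1.17, SE 0.15) and Gdf15 (-0.93, SE 0.21), with adjusted p of 0.00131 to 0.0240. Gdf15 was not called without the 0 h pair of replicate 1 (-0.67, adjusted p = 0.182). At 4 h the difference was called for Sesn2 alone (-0.96, SE 0.17, adjusted p = 0.0801). Between LV and RV at 4 h, Sesn2 (-0.78, adjusted p = 0.00848) and Trib3 (-0.83, adjusted p = 0.0421) were called lower in LV, where 1.09% of all genes were. At 0 h Gdf15 was called higher in LV (0.63, adjusted p = 0.0650), where 0.835% of all genes were. Leaving out each of the 9 pairs in turn kept the calls of Atf4, Ddit3, Ppp1r15a and Sesn2 at 8 h in 9 of 9 fits, for both the difference between the ventricles and the difference in change. A DESeq2 fit with the same block called 6 and 5 of the 10. The share of all genes called in that fit is not given here.

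The stretch that Ire1 removes from Xbp1 mRNA lies in exon 4, at chr11:5524282-5524307 of GRCm38 (+ strand), and is printed in capitals between its flanks because its removal is the direct readout of Ire1.
Xbp1: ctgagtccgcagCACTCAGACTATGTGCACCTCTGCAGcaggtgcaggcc
Of the 4 annotated Xbp1 transcripts, 3 hold these 26 bases and 0 join the flanks without them, so that the transcript counts carry no measure of this processing. The share of the most abundant Xbp1 transcript in the counts of the gene was 91.4% ± 1.27 (SD, n = 3) at 0 h and 87.4% ± 3.002 (n = 6) in the stored LV libraries, and 92.6% ± 2.82 and 88.6% ± 2.80 in RV. The difference of 4 percentage points in each ventricle did not pass a threshold of 0.05, set for these shares, in a two-sided exact permutation test (exact p = 0.0476 and 0.0714, both 0.0714 after adjustment for 2 tests). The same test on 7 transcripts of other genes in both ventricles, added after the data had been seen, gave adjusted p of 0.167 to 1. Its smallest values were those of Ddit3 in RV, where a retained-intron transcript took 13.5 to 20.02% of the counts of the gene at 0 h and 4.99 to 11.1% in the stored libraries (exact p = 0.0238, the smallest that 6 against 3 allows, adjusted p = 0.167).

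Further genes of these responses were read from 5 lists drawn up from textbook knowledge. Of 28 genes listed as targets of Atf4 and the integrated stress response, 27 were tested. Whether Atf4 drove them in these hearts was not tested. In RV, 11 of them were called higher at 4 h and 15 at 8 h, with 0 lower, where 6.17% and 13% of all genes were called higher. In LV, 3 and 4 were called higher, beside 2.4% and 5.46% of all genes. The counts depended on the fit. With the replicate number as a block, 14 and 17 were called higher in RV, and at 8 h 2 were lower, where 8.81% of all genes were. Same-numbered LV libraries correlated between 4 h and 8 h (r = 0.358 to 0.568), but between 0 h and storage they overlapped other numbers. In LV the block gave 7 and 10 higher (3.86% and 8.1% of all genes). DESeq2 without a block called 9 and 10 of the list in LV in either direction (5.99% and 10.1% of all genes) and 14 and 18 in RV (13.2% and 19.8%). Stc2, a secreted glycoprotein, was called lower in LV at both times (8.68 to 9.93 CPM at 0 h and 4.93 to 6.999 CPM at 8 h; log2 -0.60, SE 0.16, adjusted p = 0.0719). In RV it was not called without a block (-0.73, SE 0.27, adjusted p = 0.109), and was called with the block (-0.74, adjusted p = 0.0798) and by DESeq2 (-0.71, adjusted p = 0.0832), and Vldlr, a lipoprotein receptor, was called with the block (-0.70, adjusted p = 0.0593). The list median at 8 h was 1.08 in RV and 0.51 in LV, beside -0.07 and -0.02 over all genes. Stc2 and Vldlr were named after their values had been seen. Higher in both ventricles at 8 h, and largest by the mean change, were Cebpd (a C/EBP transcription factor), Slc7a11 (a cystine importer) and Jdp2 (a repressor of AP-1 sites). Cebpd had 21.8 to 31.5 CPM at 0 h and 126.5 to 147 CPM at 8 h in LV, and 15.4 to 23.5 and 104 to 156 CPM in RV. Its log2 fold change was 2.28 (SE 0.21, adjusted p = 0.00250) in LV and 2.78 (SE 0.31, adjusted p = 0.00139) in RV. Slc7a11 changed by 2.16 (SE 0.43, adjusted p = 0.0332) and 2.36 (SE 0.41, adjusted p = 0.00821), and Jdp2 by 1.40 (SE 0.30, adjusted p = 0.0405) and 1.68 (SE 0.34, adjusted p = 0.0139).

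Of the targets that edgeR without a block called in RV at 8 h and not in LV, 5 are described, picked after their values had been seen. DESeq2 called Asns, Mthfd2 and Slc7a5 in LV too (log2 1.195, 1.27 and 1.07, adjusted p = 0.0640, 0.0273 and 0.0485). Asns, asparagine synthetase, had 1.63 to 4.82 CPM in RV at 0 h and 8.09 to 20.3 CPM at 8 h, a log2 fold change of 2.33 (SE 0.49, adjusted p = 0.0165), and 1.19 (SE 0.45, adjusted p = 0.160) in LV. Mthfd2, of mitochondrial folate metabolism, had 1.76 to 3.54 and 6.18 to 18.1 CPM in RV (2.38, SE 0.47, adjusted p = 0.0125) and a log2 fold change of 1.27 (SE 0.41, adjusted p = 0.119) in LV. Slc7a5 and Slc3a2 form a transporter of large neutral amino acids. Their log2 fold changes in RV were 2.47 (SE 0.41, adjusted p = 0.00696) and 1.32 (SE 0.24, adjusted p = 0.00966), and in LV 1.06 (SE 0.37, adjusted p = 0.138) and 0.55 (SE 0.21, adjusted p = 0.165). Atf3, a stress-induced partner of Atf4, went from 132 to 330.1 CPM at 0 h to 899 to 1386 CPM at 8 h in RV (2.39, SE 0.38, adjusted p = 0.00563) and changed by 0.44 (SE 0.53, adjusted p = 0.634) in LV. In the paired fit, 10 of the 27 tested targets were called lower in LV than in RV at 8 h and 0 higher, and 9 had a called smaller change in LV. These 5 genes were in both counts. Cebpg, Ddit4 and Ndrg1, which edgeR without a block also called in RV at 8 h and not in LV, were in neither.

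Of 18 ER chaperones and folding enzymes, 1 was called higher in RV at 8 h, where 13% of all genes were, so that the list had a smaller share. It was Ero1l (also named Ero1a), which reoxidises protein disulphide isomerases, and had 16.6 to 22.2 CPM in RV at 0 h and 27.7 to 31.6 CPM at 8 h (log2 0.63, SE 0.16, adjusted p = 0.0291), and 15.6 to 29.3 and 20.6 to 23.1 CPM in LV (0.09, SE 0.23, adjusted p = 0.829). In LV at 4 h and 8 h and in RV at 4 h edgeR called 0 of the 18, with 2, 1 and 2 at an unadjusted p under 0.05, and DESeq2 called 0, 0 and 1. Such an edgeR p was found for 2272 and 3396 of all 14564 genes in LV and for 3141 of 14622 in RV. The list median at 8 h was 0.14 in LV and 0.19 in RV, beside -0.02 and -0.07 over all genes. Dnajc3, a co-chaperone and inhibitor of eIF2alpha kinases, changed by 0.48 (SE 0.16, adjusted p = 0.0803) in RV at 8 h, under 1.5-fold. Of 14 tested genes of ER-associated degradation, 1 was called, beside 6.17% of all genes called higher in RV at 4 h and 13% at 8 h. This was Edem1, a lectin that hands glycoproteins to degradation, called in RV at both times and not in LV. It had 12.1 to 17.7 CPM in RV at 0 h and 22.1 to 35.4 CPM at 8 h (log2 0.98, SE 0.23, adjusted p = 0.0225), and 15.2 to 19.9 and 17.1 to 26.1 CPM in LV (0.28, SE 0.18, adjusted p = 0.375). Ube2j1, a ubiquitin-conjugating enzyme of the ER, changed by 0.39 (SE 0.11, adjusted p = 0.0533) in RV, under 1.5-fold.

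Of the 9 sensors and their partners, edgeR without a block called 2, both higher in RV at 8 h, beside the 13% of all genes. Eif2ak2 encodes Pkr, the kinase that senses double-stranded RNA and is also induced by interferon, and had 10.5 to 13.0 CPM at 0 h and 36.6 to 319 CPM at 8 h in RV (log2 3.63, SE 1.02, adjusted p = 0.0468). In LV it went from 10.7 to 16.3 CPM to 36.3 to 211 CPM (2.80, SE 0.87, adjusted p = 0.108), which DESeq2 called (2.82, adjusted p = 0.0309). Ern1, named like Trib1, Trib2 and Ppp1r15b after the values had been seen, changed by 0.59 (SE 0.19, adjusted p = 0.0771) in RV and -0.09 (SE 0.17, adjusted p = 0.783) in LV. Eif2ak4, the sensor of amino acid shortage, changed by 0.53 (SE 0.17, adjusted p = 0.0673) in RV, under 1.5-fold. Of 12 tested feedback and partner factors, Creb3l1, an ER-bound transcription factor, was called higher in both ventricles (1.37, SE 0.25, adjusted p = 0.0257 in LV, and 1.66, SE 0.34, adjusted p = 0.0139 in RV, at 8 h). RV had 4 called higher and 1 lower at 8 h, Trib2 (13% and 5.26% of all genes). Among them Trib1, a relative of Trib3, changed by 2.62 (SE 0.27, adjusted p = 0.00117) in RV, and Ppp1r15b, the constitutive counterpart of Ppp1r15a, by 1.14 (SE 0.22, adjusted p = 0.0122). In LV at 8 h Trib1 changed by 1.075 and Ppp1r15b by 0.318, and neither was called without a block. With the replicate number as a block, Trib1 was called higher in LV at 4 h and 8 h.

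**Figure D4:**
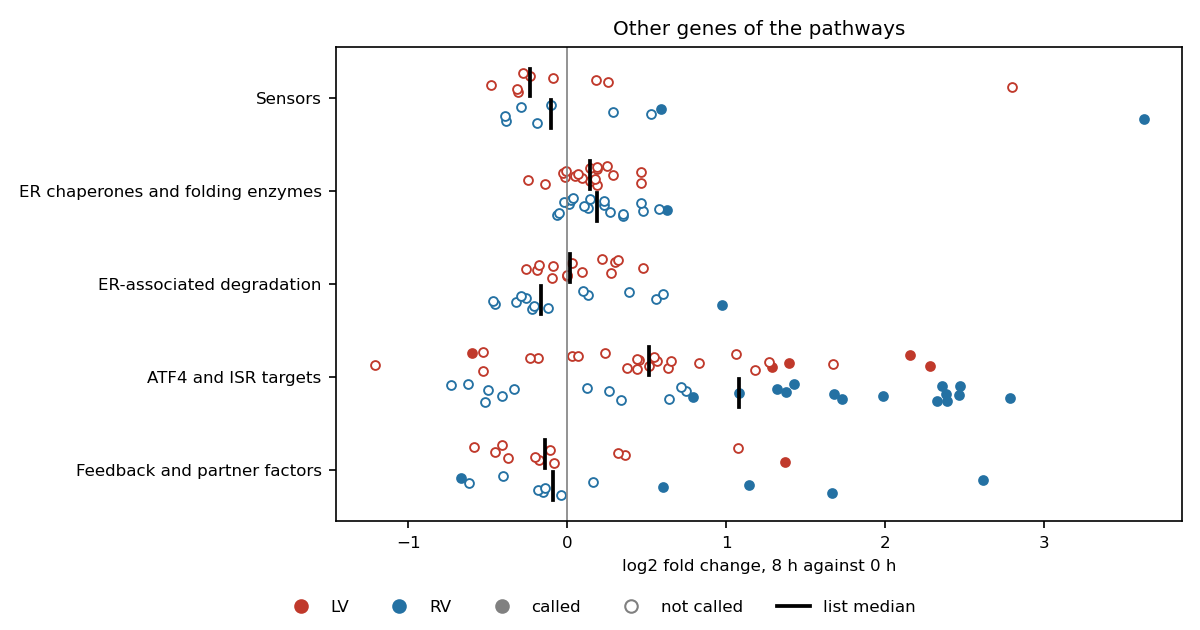
Log2 fold change at 8 h against 0 h (x axis) of each tested gene in 5 lists (y axis), LV in red and RV in blue; filled points were called and black bars are list medians. The listed targets of Atf4 and the integrated stress response spread to the right in RV with a median of 1.08. The ER chaperones lie around medians of 0.14 in LV and 0.19 in RV with 1 filled point, that of Ero1l in RV.

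The genes whose log2 CPM over the 18 libraries was most like that of a member were sought, after the data had been seen, for the 4 members called in RV at 8 h, since none was called in both ventricles. Among 15093 genes, Atf4 was most like Sertad1 (Pearson r = 0.990) and Nop14 (0.973), Ppp1r15a like Maff (0.977) and Junb (0.974), Sesn2 like Ctdp1 (0.972) and Vasn (0.967), and Xbp1 like Noct (0.950) and Irf1 (0.945). The points share ventricle, storage time, library scaling and the same-numbered pairs, so that these values are a description.

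Markers of cell types moved with storage as well. In bulk RNA, fewer cells of a type and less RNA per cell cannot be told apart. The summed cardiomyocyte markers were 57480 to 66440 CPM in RV at 0 h and 27930 to 55170 CPM at 8 h, and 55760 to 67390 and 41450 to 49220 CPM in LV. Of the 6 markers 1 was called lower in LV at 8 h and 0 in RV. The 4 neutrophil markers summed to 0.982 to 2.51 CPM at 0 h and 12.0 to 16.6 CPM at 8 h in RV, and to 1.01 to 1.77 and 9.83 to 18.1 CPM in LV, with Retnlg at 0 in all LV libraries of 0 h. All that passed the low-count filter were called higher at 8 h, 1 in RV and 3 in LV. Of the 4 fibroblast markers 1 was called higher in RV at 8 h and 0 in LV, and of the 4 macrophage markers likewise 1 and 0, while 0 of the 4 endothelial, 4 smooth muscle and 4 atrial markers were called at 8 h in either ventricle. With the replicate number as a block, 2 fibroblast and 2 smooth muscle markers were called higher in RV at 8 h. Without RV 8 h replicate 3, the library with the lowest cardiomyocyte sum, the log2 fold changes in RV at 8 h were 1.30 for Atf4 (adjusted p = 0.0290), 1.73 for Sesn2 (adjusted p = 0.0321), 1.70 for Ppp1r15a (adjusted p = 0.0578) and 0.73 for Xbp1 (adjusted p = 0.0591), and all 4 were called. The cardiomyocyte sums of the other RV libraries of 8 h, 47760 and 55170 CPM, were still below those of all RV libraries of 0 h. The part of the marker shifts in these results was not tested.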

How the data were processed

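RNA of 18 ventricular libraries was quantified by transcript. Per the labels and the study's methods, the authors pseudoaligned the reads with kallisto at its default settings to mouse transcripts of GRCm38 and deposited, for each library, estimated counts and TPM of 111462 transcripts. The library kit marks strand, which these settings do not use, so that reads of overlapping, antisense or near-identical genes may be assigned to the wrong one.

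Estimated counts were summed by gene through the GENCODE M21 annotation (110203 transcripts matched, at most 0.383% of the counts of a library lost), rounded, scaled by TMM and tested with edgeR 4.0.16 (R 4.3.3; filterByExpr, quasi-likelihood test, Benjamini-Hochberg adjustment over all genes). A call needed an adjusted p below 0.1 together with more than 1.5-fold change. Storage was tested within each ventricle over 9 libraries, and LV against RV and the difference in change over all 18. DESeq2 1.42.0 was an alternative, and scripts were tested on simulated data. Levels set between genes use TPM. Of the listed symbols, 4 were matched through RefSeq synonyms.

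Same-numbered LV and RV libraries of a storage time correlated in their deviations from the group means (r = 0.325 to 0.697, against -0.542 to 0.165 for other numbers). So did RV at 0 h with RV at 4 h (0.111 to 0.269) and 8 h (0.165 to 0.276). The numbers were therefore used as a block. Across storage times a number cannot name 1 heart, because each heart was stored for 1 time only. The Y-linked sum of RV replicate 2 was 5.15 CPM at 0 h, 178.4 CPM at 4 h and 173.4 CPM at 8 h. That of RV replicate 3 was 145.5, 4.88 and 6.78 CPM. The labels do not say that a number names a heart or that libraries come from separate animals, so p-values measure the spread between these libraries. The labels give an age of 12 weeks and the study's methods a younger one.

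All 10 genes were named. From each further list at most 3 genes called in the same direction at 8 h in both ventricles were named or, where there was none, at most 2 with the smallest adjusted p at 8 h. The members and lists were chosen with earlier results of these data known. The paired fits without a pair, DESeq2 with the block, the transcript tests beyond Xbp1 and the likeness of genes to members called in RV alone were chosen after seeing the data.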

Additional observations from a re-analysis of the deposited data

Results flagged for a closer look

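The difference between the ventricles in the change from 0 h was called in the fit with the replicate number as a block, and not in the unpaired edgeR fit, for the genes that follow. Of the 10 members, at 4 h it was -0.963 (log2, LV minus RV) for Sesn2. At 8 h it was -1.17 for Atf4, -1.49 for Ddit3, -1.32 for Ppp1r15a, -1.28 for Sesn2 and -0.929 for Gdf15. The call of Gdf15 was lost without the 0 h pair of replicate 1. Of the tested genes in the 5 lists, 3 had a called difference at 4 h, with -1.08 for Ifrd1, -1.04 for Slc7a5 and -0.970 for Mthfd2. At 8 h there were 14, with values of -2.14 for Atf3, -1.64 for Ifrd1, -1.17 for Tnfrsf10b, -0.823 for Nupr1 and -0.652 for Slc7a1, and further Trib1 -1.55, Slc7a5 -1.44, Asns -1.11, Mthfd2 -1.07, Ppp1r15b -0.828, Slc3a2 -0.749, Edem1 -0.682, Ern1 -0.674 and Eif2ak2 -0.670. The negative sign means a lower change in LV in each case. Of all 15093 genes tested, 0.265% at 4 h and 4.72% at 8 h had a called difference of that sign in the paired fit. Among the 10 members, LV lay above RV at 0 h in 3 of 3 pairs and below it at 8 h in 3 of 3 pairs for Atf4, Ddit3, Ppp1r15a, Sesn2 and Gdf15. LV lay below RV at 8 h in 3 of 3 pairs for 24.1% of all genes. The share of all genes with this change of side was not counted.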

How the results depend on the processing

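With the replicate number as a block, the number of the 10 genes called changed from 4 to 7 in RV at 8 h, and from 0 to 1, 2 and 6 for LV against RV at 0 h, 4 h and 8 h. For the difference between the ventricles in their change since 0 h it went from 0 to 1 at 4 h and to 5 at 8 h. DESeq2 with the same block called 0, 2 and 6, then 3 and 5, and its share over all genes is not given here. Leaving out a pair from the blocked fit gave 0 to 1, 0 to 2 and 4 to 6 genes for LV against RV, and 0 to 3 and 4 to 6 for the difference in change. Without a block, leaving out a library gave 0 to 2 genes in LV at 4 h, 0 to 1 in LV at 8 h, 0 to 4 in RV at 4 h, 3 to 6 in RV at 8 h and 0 to 2 for LV against RV at 8 h. The counts of 8 h against 4 h were 0 in all settings tried. RLE size factors, length offsets, no filter, no fold threshold, mitochondrial genes left out, a Y-linked term and, for storage, a fit of all 18 libraries moved no count by over 1.5 times. Same-numbered LV libraries of 0 h and storage (r = 0.04 to 0.261 with 4 h and -0.019 to 0.105 with 8 h) overlapped other numbers (-0.164 to 0.068 and -0.087 to 0.085). Those of 4 h and 8 h deviated together (0.358 to 0.568). In LV the block called 0 of the 10, as did the fit without it. Of the 27 tested genes on the Atf4 and integrated stress response list, the block called 7 higher in LV at 4 h and 10 at 8 h. The fit without it called 3 and 4. Asns, Mthfd2 and Slc7a5 were among the 10, and of the sensors the block called Eif2ak2 at 8 h. Of 340 checks on the changes at 8 h of single genes, 318 kept direction and call, 12 gained the call, 2 lost it and 8 changed sign, all in LV. These were Atf4 (-0.0334 without LV 8 h replicate 3), Trib3 (-0.171 without LV 8 h replicate 1), Chac1 (0.0622 and 0.0554 without LV 8 h replicate 1 and replicate 2) and Gdf15 (0.137 with the block, 0.0363 with the Y-linked term, 1.10 without LV 0 h replicate 1 and 0.0582 without LV 8 h replicate 2). Leaving out a library gave ranges of -0.0334 to 0.608 for Atf4, -0.171 to 0.615 for Trib3, -0.315 to 0.0622 for Chac1 and -0.524 to 1.10 for Gdf15. The causes were not tested. Trib3 had the lowest count of the 10 genes, 27 in 1 library.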
